A study of Drosophila melanogaster with 9 samples.

Results

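The genes for mitochondrial ribosomal proteins were followed in eye imaginal discs of Drosophila melanogaster larvae that overexpressed PSC or carried an rbf1 mutation. Members were the genes whose symbol starts with mRpL, for the large subunit, or mRpS, for the small subunit. A gene was read from a probe set annotated to it alone, and where it had several such sets the brightest over all 9 arrays was used. Of 11983 genes measured in this way 69 were members, 44 of the large and 25 of the small subunit. The RefSeq gene table (assembly Release 6 plus ISO1 MT) lists 73 symbols of this form. Of the other 4, mRpL34 and mRpL37 were not analysed here, and mRpL53 and mRpS10 lay on probe sets annotated to more than 1 gene and are described apart.

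Mitochondria make a small set of respiratory chain proteins from their own genome, on ribosomes of their own. The RNAs of those ribosomes are transcribed inside the organelle, whereas their proteins are encoded in the nucleus, made in the cytosol and imported. Many of the proteins descend from proteins of the bacterial ribosome, and others are found in mitochondrial ribosomes only. In imaginal discs, the larval precursors of adult structures, dividing and differentiating cells draw on both the cytosolic and the mitochondrial ribosome.

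The study asked how loss of rbf1, the fly member of the retinoblastoma family of repressors of E2F target genes, and excess PSC, a Polycomb group protein of Polycomb repressive complex 1, change gene expression in the disc. Discs of larvae in the third instar were used in all 9 samples, with total RNA hybridised to the Affymetrix Drosophila Genome 2.0 array. The 3 groups had 3 biological replicates each. Control discs had the genotype w1118 Gal4, PSC-overexpressing discs w1118 psc, and mutant discs rbf1120a Gal4. The labels do not name the Gal4 driver or the cells in which it acts, those of the PSC discs make no mention of Gal4, and they do not say how many animals were pooled in a sample. Each genotype is a stock of its own, so the effect of the alteration and of the stock's background cannot be told apart. In whole discs, fewer cells of a type and less RNA per cell cannot be told apart either.

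Values are log2 intensities that the authors made with RMA, on which a difference of 1 is a doubling of signal. They ran from 2.86 to 14.85, and the medians of the arrays over all probe sets lay between 5.83 and 5.92. Psc was at 9.86, 9.86 and 9.80 in control discs and at 12.53, 12.49 and 12.50 in PSC discs, a difference of 2.67 (SE 0.058, limma adjusted p = 3.12e-07). Rbf differed between mutant and control by -0.37 (SE 0.096, limma adjusted p = 0.0479), and this call was lost in 6 of the 9 fits that left out 1 array. All 10 eye disc markers were measured, and their mean was between 10.69 and 10.90 on every array. Of these markers, 2 were lower in the mutant than in PSC discs, ato with a difference of -0.52 (limma adjusted p = 0.00996) and dac with -0.49 (limma adjusted p = 0.0299), and 0 were called against control. Markers of other tissues varied. The mean of the 6 salivary gland glue genes ranged from 6.52 to 13.10 over control arrays, from 9.53 to 12.24 over PSC arrays and from 6.40 to 11.75 over rbf1 arrays. The means of 7 measured fat body genes of 10 listed ran from 7.39 to 7.99, 7.83 to 8.53 and 7.04 to 7.90 in the same order of groups, and those of 8 haemocyte genes from 10.06 to 10.39, 10.26 to 10.64 and 9.70 to 10.10. Those of 5 muscle genes of 8 listed ran from 11.69 to 12.23, 11.71 to 11.99 and 11.71 to 11.99, and those of 7 brain and glia genes of 8 listed from 8.77 to 9.03, 8.79 to 8.97 and 8.94 to 9.21. In the mutant against control, 2 of the 8 haemocyte genes fell, PPO1 by 1.25 (limma adjusted p = 0.0251) and PPO2 by 1.10 (limma adjusted p = 0.0448), and 2 of the 7 brain and glia genes rose, repo by 0.52 (limma adjusted p = 0.000274) and nrv2 by 0.38 (limma adjusted p = 0.00379). Of the 7 fat body genes 1 rose and 1 fell there, and of the 5 muscle genes 1 fell. Against PSC discs, 3 haemocyte, 2 fat body, 1 muscle and 1 brain and glia genes were lower in the mutant and 3 brain and glia genes higher; PPO1 differed there by -1.97 and PPO2 by -1.94. Under PSC against control 1 brain and glia gene rose and 1 fell, and 0 of the other lists were called. Beside these marker counts, 10.2% of all genes were called in the mutant against control (6.31% higher, 3.92% lower). The share was 3.80% under PSC against control and 10.6% in the mutant against PSC discs (6.91% higher, 3.66% lower). The marker lists are short, and none was tested against these shares. The glue genes were tried as a covariate, and the values are given beside the genes they touched; the part of the other markers in the results was not tested.

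All 69 members gave a clear signal in the disc. Their means over the 9 arrays ran from 9.70 to 11.85 with a median of 10.58, and each of them was above the median gene of the array set, at 8.15. Among control means the highest were mRpL33 at 11.88, mRpS5 at 11.73 and mRpL30 at 11.66, and the lowest were mRpL11 at 9.72 and mRpL43 and mRpL48, both at 9.85. Brightness differs between probe sets for reasons of probe sequence, so this order is not one of transcript amount. The median standard error of a difference was 0.063 for the members and 0.0753 for all genes.

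The members moved together from array to array, within groups as much as between them. On each array the deviation of every member from its own mean over the 9 arrays was taken, and the median of the 69 deviations followed. It was 0.041, -0.022 and -0.071 on control arrays 1, 2 and 3. On the PSC arrays it was 0.041, 0.070 and -0.053, and on the rbf1 arrays 0.035, 0.019 and -0.060. The array numbered 3 was therefore the lowest of each group, and the groups overlapped over nearly their whole range. On control array 3 only 6 of the 69 members were above their own mean, against 44 and 27 on control arrays 1 and 2. On PSC array 2 the count was 65, against 55 and 20 on PSC arrays 1 and 3, and on the rbf1 arrays it was 49, 41 and 21. The medians spanned 0.141 over the 9 arrays. The same median over all 11983 genes spanned 0.034, and it too was lowest on the array numbered 3 in every group, at -0.020, -0.012 and -0.021. As means over 3 arrays, the member medians were -0.017 ± 0.056 (SD, n = 3) in control, 0.019 ± 0.064 in PSC and -0.0021 ± 0.051 in rbf1 discs, so the groups differed by less than the spread between their arrays. Across the 9 arrays, which all pairs share, the median of Pearson's r over the 2346 pairs of members was 0.44, and 2022 pairs had a positive r.

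**Figure D1:**
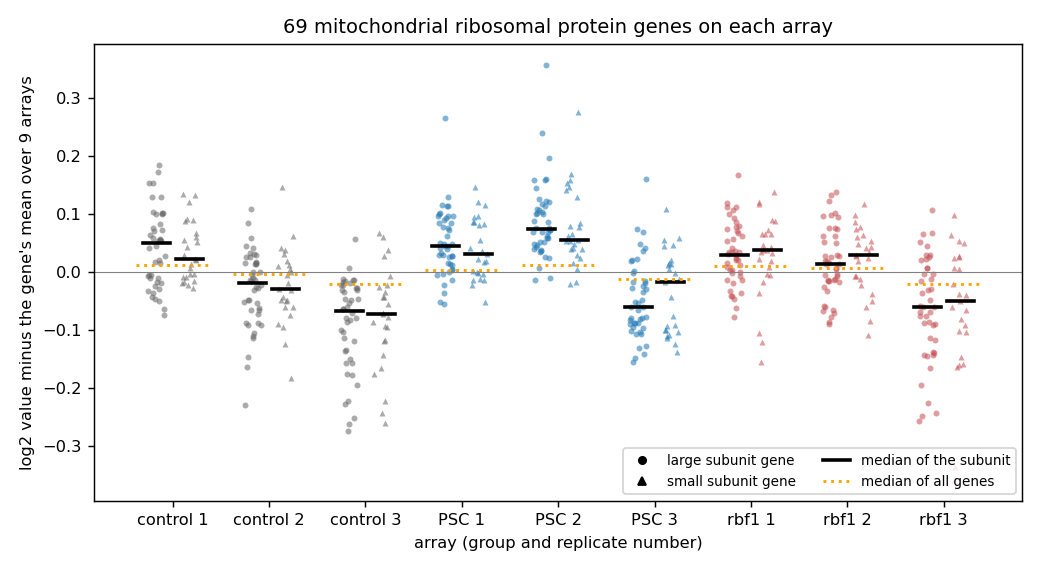
Deviation of each mitochondrial ribosomal protein gene from its own mean over the 9 arrays, in log2 units, for each array. Circles are the 44 large and triangles the 25 small subunit genes, black bars the median of each subunit and dotted lines the median of all genes; the large subunit median is lowest in each group on the array numbered 3, at -0.067, -0.060 and -0.060, and the groups overlap.

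In the rbf1 mutant, 2 of the 69 members changed against control, against 10.2% of all genes tested. The large subunit gene mRpL44 rose and the small subunit gene mRpS26 fell, and over all genes 6.31% rose and 3.92% fell. Among genes above the median level of 8.15, as all 69 members were, 13.2% were called. That set also holds genes dimmer than the dimmest member, at 9.70. A further 7 members had an unadjusted limma p under 0.05, which makes 9 of 69 with the 2 called, beside 2790 of 11983 genes.

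mRpL44 encodes a large subunit protein related to ribonuclease III. It was at 11.05, 11.02 and 10.95 in control discs, at 11.12, 11.16 and 11.05 in PSC discs and at 11.22, 11.24 and 11.18 in rbf1 discs. All 3 mutant arrays were above all 6 others. The difference from control was 0.21 (SE 0.049, 95% interval 0.09 to 0.32), a 1.15-fold rise (limma adjusted p = 0.0324). The PSC discs lay in between, 0.10 above control (limma adjusted p = 0.356) and 0.10 below the mutant (limma adjusted p = 0.247). The call in the mutant was lost in 7 of the 9 fits that left out 1 array, with an adjusted p of up to 0.11, with each array centred on its median (limma adjusted p = 0.113), and with the mean of the glue genes as a covariate (limma adjusted p = 0.0921).

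mRpS26 encodes a small subunit protein that has no bacterial counterpart. Its values were 10.22, 10.28 and 10.16 in control discs, 10.25, 10.21 and 10.24 in PSC discs and 10.03, 10.03 and 9.77 in rbf1 discs. The mutant arrays were below the 6 others, and the array numbered 3 stood lower than the other two. The gene fell by 0.28 in the mutant (SE 0.073, 95% interval -0.45 to -0.11), or 1.21-fold (limma adjusted p = 0.0468). The call was lost whichever 1 of the 9 arrays was left out, with adjusted p between 0.0581 and 0.132, and with the glue covariate (limma adjusted p = 0.121).

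The next largest differences of the mutant from control did not pass the threshold. Those above 0 included mRpS29, the fly DAP3, a GTP-binding small subunit protein, at 0.18 (SE 0.069, limma adjusted p = 0.165), and mRpS23 at 0.17 (SE 0.097, limma adjusted p = 0.354). Below 0 they included mRpS6 at -0.18 (limma adjusted p = 0.235) and mRpL42 at -0.18 (SE 0.079, limma adjusted p = 0.217). mRpL38, whose product is related to phosphatidylethanolamine-binding proteins, was at 10.63, 10.62 and 10.50 in control and at 10.75, 10.75 and 10.71 in mutant discs, a difference of 0.16 (SE 0.048, limma adjusted p = 0.0807). Among the alternatives run, it passed only when genes below the median level were left out (limma adjusted p = 0.0360), a fit in which 18.1% of the genes passed. mRpL2 and mRpL12, both chosen for their role after the values were seen, did not pass either. mRpL2, the counterpart of a protein of the bacterial peptidyl transferase centre, differed by 0.15 (SE 0.072, limma adjusted p = 0.269). Its mutant arrays all lay above its control arrays. mRpL12, of the stalk that recruits elongation factors, differed by 0.01 (SE 0.076, limma adjusted p = 0.960).

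Over the 69 members, the median difference of the mutant from control was 0.040, beside -0.0042 over all genes. With each array centred on its median it was -0.0019, beside -0.046 over all genes, so the members stayed above all genes. Without control array 3 the member median was -0.0038. Of the members, 43 were above 0 and 26 below. The mutant and control arrays did not overlap for 20 members, beside 28.9% of all genes. Of these members 16 were higher in the mutant, beside 15.7% of all genes, and 4 lower, beside 13.2%. The intervals bound the change of each member taken alone, with no adjustment for the number of members. The 95% interval of the difference lay within 1.4-fold in either direction for all 69 members, and the farthest bound, of mRpS26, was 1.36-fold.

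**Figure D2:**
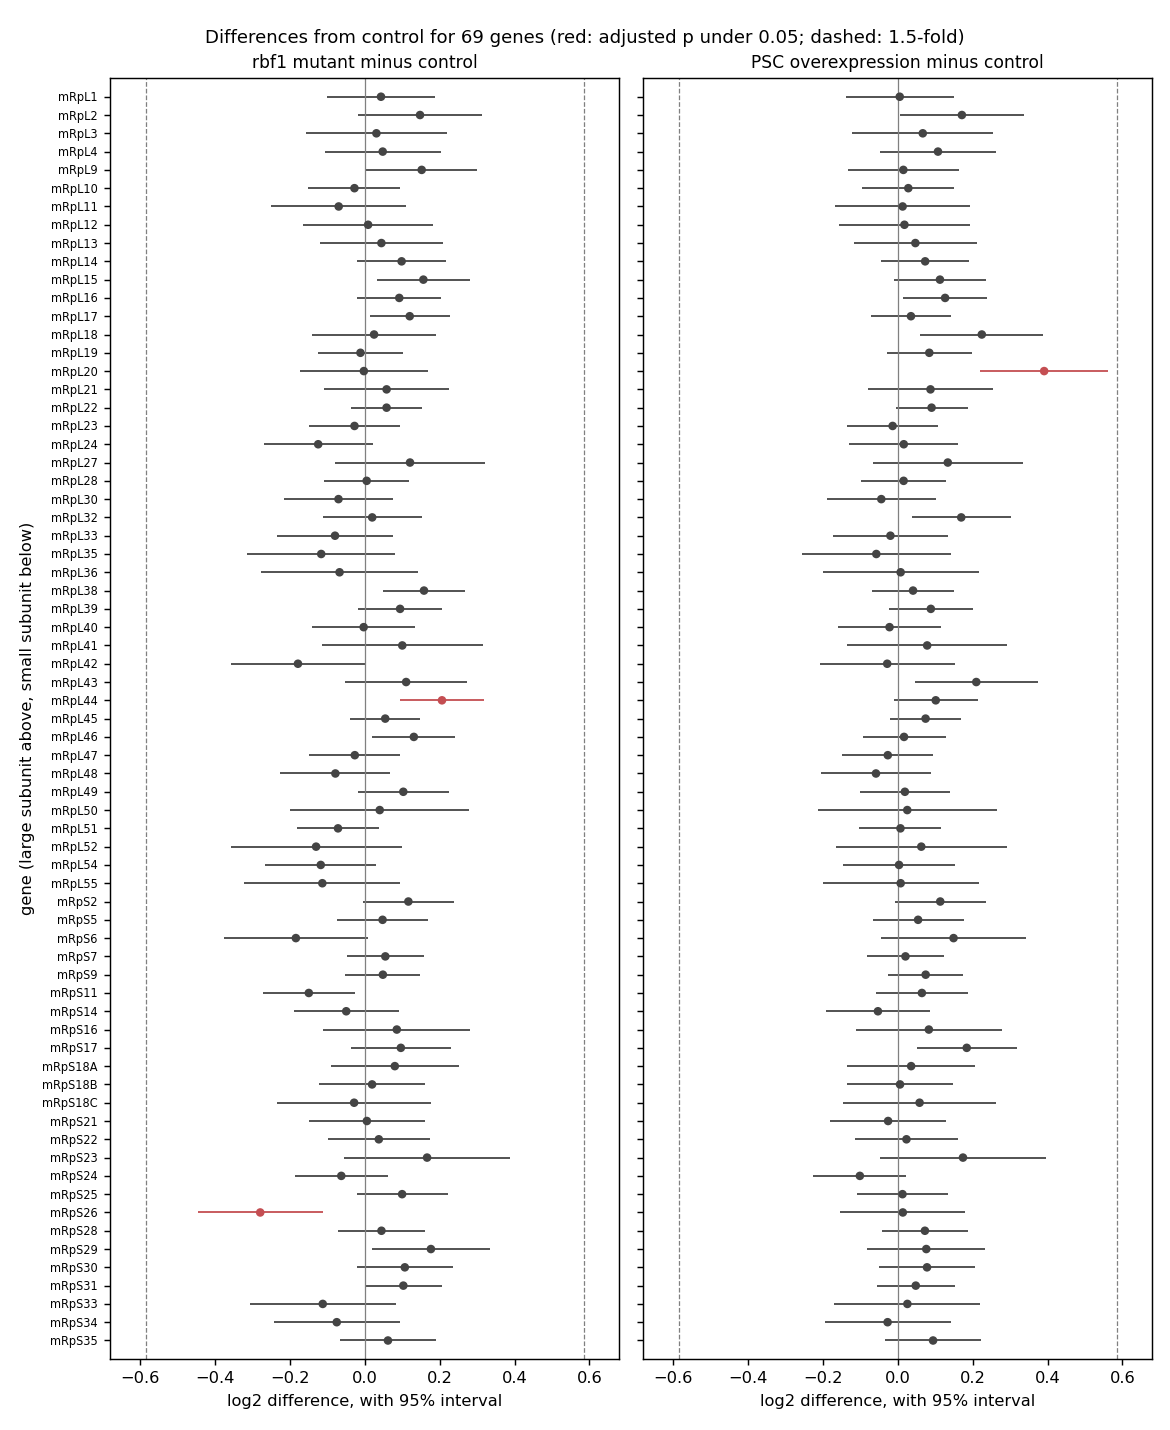
Log2 difference from control with its 95% interval for each of the 69 members, in the order of their names, for the rbf1 mutant (left) and PSC overexpression (right). Red marks a limma adjusted p under 0.05 (mRpL44 at 0.21 and mRpS26 at -0.28 in the mutant, mRpL20 at 0.39 under PSC), and all intervals lie inside the dashed lines at 1.5-fold.

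Under PSC overexpression 1 member changed against control, mRpL20, which rose, and 0 fell, against 3.80% of all genes tested (1.42% higher, 2.38% lower) and 4.32% of those above the median level. At an unadjusted limma p under 0.05 there were 7 of 69 members, beside 1979 of 11983 genes. mRpL20 encodes the counterpart of bacterial L20, which binds the large ribosomal RNA early in the assembly of the subunit. Its values were 10.85, 10.83 and 10.70 in control discs, 11.19, 11.28 and 11.08 in PSC discs and 10.85, 10.85 and 10.67 in rbf1 discs. The PSC arrays were above all others, and the control and mutant arrays covered the same range. The rise under PSC was 0.39 (SE 0.074, 95% interval 0.22 to 0.56), or 1.31-fold (limma adjusted p = 0.0261), and the mutant differed from control by -0.0025 (limma adjusted p = 0.989). The call against control was lost in 5 of the 9 fits that left out 1 array (any control array, or PSC array 1 or 2), with an adjusted p of up to 0.094.

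The other members were closer to control. mRpL18, the counterpart of the bacterial L18 that binds 5S ribosomal RNA, was at 10.21, 10.05 and 9.96 in control discs and at 10.27, 10.40 and 10.23 in PSC discs. Its difference of 0.22 did not pass (SE 0.072, limma adjusted p = 0.157). mRpL43 followed with 0.21 (SE 0.071, limma adjusted p = 0.183) and mRpS17 with 0.18 (SE 0.058, limma adjusted p = 0.151). At the other end stood mRpS24 with -0.10 (SE 0.054, limma adjusted p = 0.409), mRpL48 with -0.058 and mRpL35 with -0.058.

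More members stood above control than below it under PSC, by small amounts. The difference was above 0 for 57 of 69 members, or 82.6%, beside 53.1% of all genes, and its median was 0.041 beside 0.0091 over all genes. Since the members move together from array to array, these 57 are not 57 separate observations. Without control array 3, on which nearly all members were low, the median was 0.0011, and without control array 1 it was 0.075. The groups did not overlap for 14 members, or 20.3%, beside 21.7% of all genes and 25.5% of those above the median level. Of the 69 members 13 were higher in PSC discs without overlap, beside 1353 of 11983 genes (11.3%). Another 1 of the 69 was lower, beside 1248 of 11983 genes (10.4%). All 69 intervals lay within 1.5-fold and 68 within 1.4-fold, and the farthest bound, of mRpL20, was 1.48-fold.

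The mutant and the PSC discs were compared directly, which tests whether the effects of the genotypes differ and uses the control arrays only for the spread. Of the members 4 were lower in the mutant, mRpL20, mRpS26, mRpS11 and mRpS6, and 0 were higher, against 10.6% of all genes tested (6.91% higher, 3.66% lower) and 13.3% of those above the median level. At an unadjusted limma p under 0.05 there were 8 of 69 members, beside 2767 of 11983 genes. For mRpL20 the difference was -0.39 (SE 0.074, limma adjusted p = 0.0116), or 1.31-fold. This call held in each of the 9 fits that left out 1 array, with an adjusted p of up to 0.0444. mRpS26 differed by -0.29 (SE 0.073, limma adjusted p = 0.0391), or 1.22-fold, a call kept only without control array 3 among the 9.

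mRpS6 and mRpS11 are the counterparts of bacterial S6 and S11, proteins of the platform of the small subunit. mRpS6 was at 10.06, 10.01 and 9.95 in control discs, at 10.14, 10.27 and 10.05 in PSC discs and at 9.87, 9.93 and 9.66 in rbf1 discs. The mutant arrays were the lowest, and the control arrays overlapped with the PSC arrays. From control the gene differed by -0.18 in the mutant (limma adjusted p = 0.235) and by 0.15 under PSC (limma adjusted p = 0.441), and between the altered genotypes by -0.33 (SE 0.084, limma adjusted p = 0.0408), or 1.26-fold. mRpS11 was at 11.18, 11.10 and 11.06, at 11.17, 11.23 and 11.13, and at 10.93, 11.03 and 10.93 in the same order of groups. Again the mutant arrays lay below all others. It differed by -0.15 from control in the mutant (limma adjusted p = 0.132), by 0.06 under PSC (limma adjusted p = 0.621), and by -0.21 between the altered genotypes (SE 0.054, limma adjusted p = 0.0402). Leaving out 1 array ended the call in 7 of 9 fits for mRpS6 and in 6 of 9 for mRpS11, and the glue covariate ended those of mRpS6 (limma adjusted p = 0.0840), mRpS11 (limma adjusted p = 0.0779) and mRpS26 (limma adjusted p = 0.0934).

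The members highest in the mutant relative to PSC discs, mRpL9 at 0.14, mRpL38 at 0.12 and mRpL46 at 0.11, did not pass. The median difference was -0.019 beside -0.011 over all genes, and 27 members were above 0. The groups did not overlap for 14 members, or 20.3%, beside 30.5% of all genes and 37.6% of those above the median level. Of the 69 members 6 were higher in the mutant without overlap, beside 1941 of 11983 genes (16.2%). Another 8 of the 69 were lower, beside 1710 of 11983 genes (14.3%). All 69 intervals lay within 1.5-fold and 67 within 1.4-fold. With arrays centred on their medians the median difference was -0.081, beside -0.072 over all genes.

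**Figure D3:**
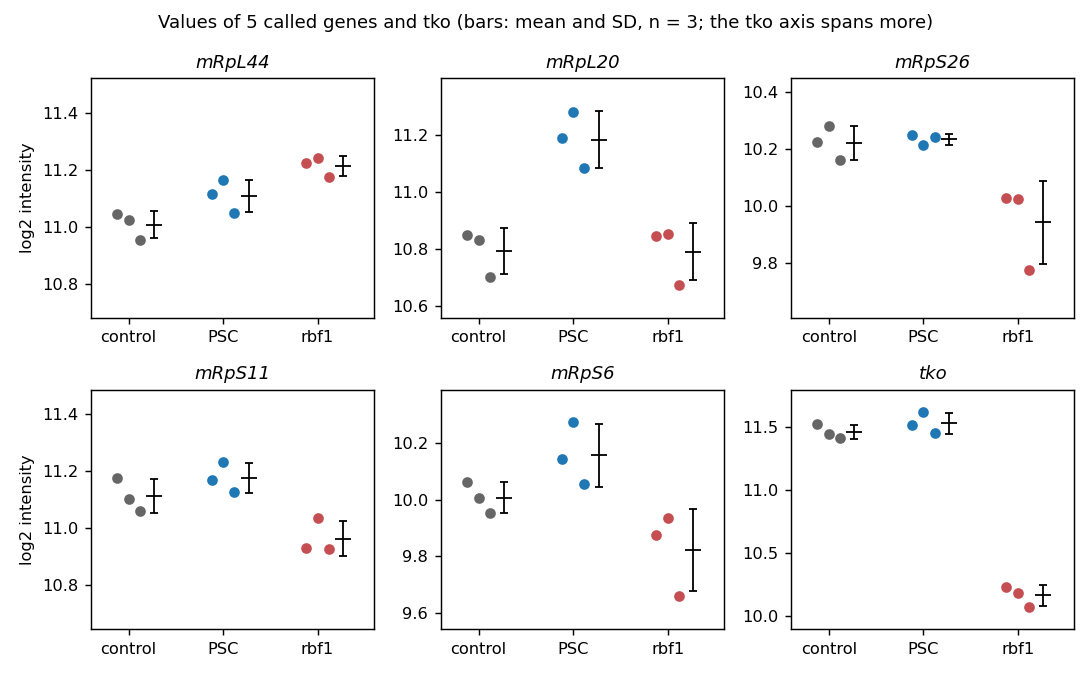
Log2 intensity on each array for the 5 members that passed limma's adjusted p of 0.05 in a comparison and for tko, each gene on its own axis; points are arrays and bars the mean and SD of 3, and the axis of tko spans more than the others. mRpL20 is high on the 3 PSC arrays, mRpL44 is highest and mRpS26, mRpS11 and mRpS6 are lowest on the 3 rbf1 arrays, and tko is lower by 1.30 there.

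The medians of the large and the small subunit lay close together in each comparison, and their difference was not tested. In the mutant the median difference from control was 0.028 over the 44 large and 0.047 over the 25 small subunit genes. There 1 large subunit gene (2.27%) was called higher and 1 small subunit gene (4%) lower, beside 6.31% and 3.92% of all genes. Under PSC the medians were 0.031 and 0.054. The single called gene belonged to the large subunit (2.27%), beside 3.80% of all genes called and 1.42% called higher. Between the altered genotypes the medians were -0.025 and 0.0027. In the mutant 1 large (2.27%) and 3 small subunit genes (12%) were lower, beside 3.66% of all genes. Each of these 3 small subunit calls was lost in 6 to 8 of the 9 fits that left out 1 array. On single arrays, the median deviation of the large minus that of the small subunit was 0.027, 0.0099 and 0.0053 in control, 0.014, 0.020 and -0.044 in PSC and -0.0084, -0.014 and -0.011 in rbf1 discs. The control arrays were all above 0 and the mutant arrays all below 0, and the PSC arrays lay on both sides and covered the range of the other groups except control array 1. mRpS30 and mRpS18A are named for the small subunit, but their mammalian counterparts sit in the large one. They differed from control by 0.11 and 0.08 in the mutant and by 0.08 and 0.04 under PSC, with no call, and counting them with the large subunit gave medians of 0.035 and 0.044 in the mutant and of 0.035 and 0.054 under PSC. With this count the large minus small value of control array 2 was -0.0050, so the control arrays were no longer all above 0.

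Sorted by descent, 42 members have a counterpart in the bacterial ribosome, 26 are specific to mitochondria, and mRpL55 was left unclassed. In the mutant the median difference from control was 0.022 for those with a bacterial counterpart and 0.058 for those specific to mitochondria, and under PSC it was 0.050 and 0.033. The order of these classes thus turned between the genotypes at a size below the spread between arrays. Within groups the members with the largest standard deviations were mRpL50 at 0.141, mRpL52 at 0.134 and mRpS23 at 0.129. mRpL50 was at 10.46, 10.39 and 10.08 in control discs, where the array numbered 3 was again the low one.

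A mitochondrial ribosomal protein that the symbol rule does not catch changed far more than any member. tko, technical knockout, encodes the counterpart of bacterial S12, a small subunit protein at the decoding site, and gave its name to a bang-sensitive mutant. It was at 11.53, 11.44 and 11.41 in control discs, at 11.51, 11.62 and 11.45 in PSC discs and at 10.23, 10.18 and 10.07 in rbf1 discs. The mutant arrays stood more than 1 log2 unit below all others. The fall was by 1.30 (SE 0.063, 95% interval -1.45 to -1.16), or 2.46-fold (limma adjusted p = 2e-05), and it lay between -1.33 and -1.26 with any 1 array left out. Against PSC discs the difference was -1.37 (SE 0.063, limma adjusted p = 1.6e-05), and under PSC the gene differed from control by 0.07 (limma adjusted p = 0.670). tko is read by 1 probe set. Its neighbours in the RefSeq table are gt and boi. gt, a gap gene of the embryo, fell by 0.50 in the mutant (limma adjusted p = 0.0134), and boi, a Hedgehog co-receptor, differed by -0.17 from control (limma adjusted p = 0.0843) and by -0.27 from PSC discs (limma adjusted p = 0.0107). bonsai, a small subunit protein of the S15 type, differed by 0.03 in the mutant (SE 0.077, limma adjusted p = 0.878) and by 0.17 under PSC (limma adjusted p = 0.309). CG6094, listed with the large subunit, differed by -0.05 (SE 0.085, limma adjusted p = 0.782) and -0.14 (limma adjusted p = 0.491).

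Other genes needed for mitochondrial translation were taken from lists of textbook members. Of 11 names listed for translation factors, among which mRRF1 and CG4447 are 1 gene, 9 genes were measured. Of these 9, 2 rose in the mutant and 0 fell, against 10.2% of all genes called and 6.31% called higher. The median difference of the 9 was 0.19 beside -0.0042 over all genes. mRRF1, the ribosome recycling factor, was at 9.24 ± 0.05 (SD, n = 3) in control and at 9.82 ± 0.08 in mutant discs, a rise of 0.57 (SE 0.055, limma adjusted p = 0.000379), and it was higher than in PSC discs by 0.57 (limma adjusted p = 0.000386). mEFG1, the elongation factor for translocation, rose by 0.29 (SE 0.050, limma adjusted p = 0.00819), and its difference from PSC discs, 0.18, did not pass (limma adjusted p = 0.0603). Both calls against control held with any 1 array left out. Under PSC 0 of the 9 were called, against 3.80% of all genes, and the median was 0.016.

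Aminoacyl-tRNA synthetases load tRNAs with amino acids. Of 19 listed as mitochondrial, 18 were measured. The list includes the synthetase-like Slimp, and HisRS, ThrRS and GlyRS, whose symbols lack the -m of the other synthetases. In either genotype 0 of the 18 were called against control, with medians of 0.066 in the mutant and 0.012 under PSC. Between the altered genotypes 2 were higher in the mutant, SerRS-m by 0.35 (SE 0.064, limma adjusted p = 0.00983) and its paralog Slimp, which is not known to charge tRNA, by 0.28 (SE 0.053, limma adjusted p = 0.0118), a share of 11.1% beside 10.6% of all genes called. Of 13 genes of mitochondrial DNA maintenance and transcription measured of 15 listed, 1 was called in each genotype, mTTF, a transcription termination factor. This is 7.69%, beside 10.2% of all genes in the mutant and 3.80% under PSC. It was at 9.35 ± 0.08 (SD, n = 3) in control discs, at 9.64 ± 0.02 in PSC and at 9.68 ± 0.04 in mutant discs. It rose by 0.33 in the mutant (SE 0.050, limma adjusted p = 0.0042) and by 0.29 under PSC (limma adjusted p = 0.0173), the latter lost in 5 of 9 fits without 1 array. The medians of the 13 genes were 0.17 and 0.024.

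Of 16 genes of mitochondrial import and chaperones measured of 20 listed, 2, or 12.5%, fell in the mutant, the small Tim chaperone Tim9a by 0.30 (SE 0.069, limma adjusted p = 0.0301) and the import receptor Tom70 by 0.19 (SE 0.048, limma adjusted p = 0.0454), with a median of -0.038; over all genes 10.2% were called and 3.92% fell. Leaving out 1 array ended the call of Tim9a in 6 and that of Tom70 in 9 of 9 fits. Of 9 names listed for regulators of growth and mitochondrial biogenesis, with Ets97D under more than 1, 4 genes were measured. Of these 1 was called, against 10.2% of all genes. The mitochondrial sirtuin Sirt4 fell by 0.21 (SE 0.049, limma adjusted p = 0.0288), a call lost in 6 of 9 such fits.

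The comparison with the cytosolic ribosome and the respiratory chain shows how the members stood among related genes. Of 36 cytosolic ribosomal protein genes 1, or 2.78%, was called in each comparison, beside 10.2%, 3.80% and 10.6% of all genes. It was RpS5b, a paralog known for its expression in the germline. It rose by 0.62 in the mutant (limma adjusted p = 0.00472) and fell by 0.48 under PSC, a call lost in 7 of 9 fits without 1 array. The medians of the 36 were 0.010 and -0.00045. The median level of these genes, 14.45, was near the highest value in the data, 14.85. Of 73 respiratory chain genes, 2, or 2.74%, fell in the mutant and 0 rose, beside 3.92% of all genes that fell and 10.2% called. They were ND-B14.5B of complex I by 0.35 (limma adjusted p = 0.00486) and UQCR-Q of complex III by 0.22 (limma adjusted p = 0.0124). The median of the 73 was -0.064, with 59 below 0, and that of the 50 above the median level was -0.084. On single arrays the median deviation of the 73 was 0.068, 0.077 and -0.044 in control and -0.022, -0.037 and -0.051 in rbf1 discs. Control array 3 thus lay within the range of the mutant arrays. In the same comparison the median of the mitochondrial ribosomal protein genes was 0.040. It was above 0 except with centred arrays and without control array 3. With centred arrays the median over all genes was -0.046. The medians of the respiratory chain and the mitochondrial ribosomal protein genes were not tested against each other. Under PSC 1 respiratory chain gene of the 73 fell, against 3.80% of all genes called, ND-B14.5B by 0.35, with a median of -0.023.

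**Figure D4:**
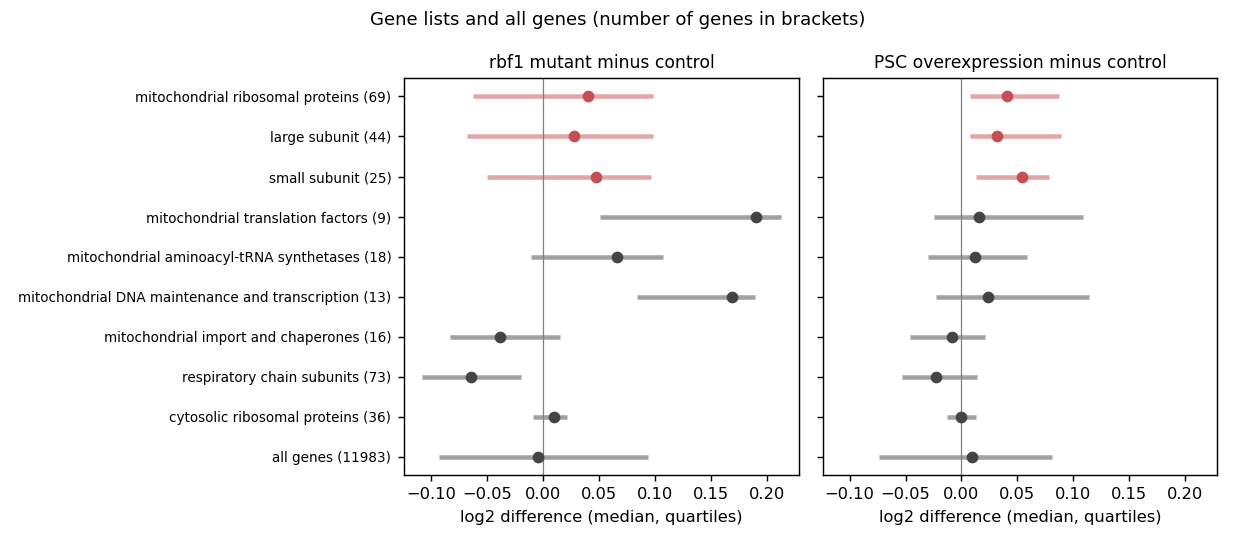
Median and quartiles of the log2 difference over the genes of each list, for the rbf1 mutant against control and PSC overexpression against control, with the number of genes measured. The median of the 69 mitochondrial ribosomal protein genes is 0.040 and 0.041, that of the 9 translation factors 0.19 and 0.016, and that of the 73 respiratory chain genes -0.064 and -0.023.

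Probe sets gave a partial check of single members. Of the 69, 67 had 1 probe set and 2, mRpL47 and mRpS11, had 2. The second set of mRpS11 was at 10.74, 10.69 and 10.59 in control discs, at 10.66, 10.73 and 10.53 in PSC discs and at 10.53, 10.40 and 10.36 in rbf1 discs. It differed by -0.25 from control and by -0.22 from PSC discs in the mutant, beside -0.15 and -0.21 for the brighter set. The second set of mRpL47 differed by 0.0077 in the mutant and by 0.023 under PSC. The probe set that mRpS10 shares with CG34316 differed from control by 0.05 in the mutant and 0.08 under PSC, and the one that mRpL53 shares with CG33155 by 0.0087 and -0.13. These shared signals cannot be divided between their genes.

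The genes on either side of the 5 called members were looked up in the RefSeq table, and of these 10 neighbours 1 passed a comparison. Over all genes, 10.2% were called in the mutant against control, 3.80% under PSC against control and 10.6% in the mutant against PSC discs. Icmt, next to mRpL20, rose by 0.45 in the mutant (limma adjusted p = 0.00278) and differed by -0.04 under PSC (limma adjusted p = 0.796), whereas mRpL20 rose under PSC.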

How the data were processed

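The authors deposited 1 log2 intensity per probe set and array, made with RMA per the submitters' processing notes, whose version was not given in the sources used here. The number of arrays, 9, limits the precision. Of 18952 probe sets, 183 control sets were left out, and 13647 with 1 annotated gene gave 11983 genes (brightest set over all arrays where a gene had several, as 1094 did). Identifiers of 11894 genes matched the RefSeq table (Release 6 plus ISO1 MT) and 89 did not.

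A group-means model over all 9 arrays was fitted with limma 3.58.1 in R 4.3.3 (eBayes, Benjamini-Hochberg over all 11983 genes, threshold 0.05, no filter on dim genes). Standard errors and 95% intervals are limma's. Medians over lists were not tested. Figures used matplotlib 3.10.9.

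Members, lists and tests were chosen with earlier results of these data known. Named genes were every called member, the 3 largest differences in each direction per comparison, the 3 highest and lowest by control mean, the 3 with the largest SD within groups, and in other lists the called genes, with tko and bonsai always. Alternatives were other moderation, only the groups compared, the mean of all probe sets, centring, quantile normalization, a filter on dim genes, a replicate block, leaving out each array, and, added after the data were seen, the glue genes as a covariate and another subunit for mRpS30 and mRpS18A.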

Additional observations from a re-analysis of the deposited data

Results flagged for a closer look

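Each difference here is the effect of the rbf1 mutation minus that of PSC overexpression on the log2 scale, from limma's direct comparison of those groups, and passed an adjusted p of 0.05, which is why it is listed. Among the members it was -0.39 for mRpL20, -0.33 for mRpS6, -0.29 for mRpS26 and -0.21 for mRpS11. Outside the symbol rule, tko differed by -1.37, and its neighbours gt and boi by -0.44 and -0.27. In mitochondrial translation, mRRF1 differed by 0.57, SerRS-m by 0.35 and Slimp by 0.28. Elsewhere in the mitochondrion the differences were -0.30 for Tim9a, -0.24 for Sirt4, -0.21 for ATPsynCF6, a subunit of ATP synthase, and -0.16 for ND-B16.6, of complex I. The cytosolic RpS5b differed by 1.09 and Icmt, next to mRpL20, by 0.50. With any 1 array left out, mRpL20, tko, mRRF1, SerRS-m, Slimp, RpS5b, boi and Icmt passed in all 9 fits. The call was lost in 9 of 9 fits for ND-B16.6, in 8 for mRpS26, in 7 for mRpS6 and ATPsynCF6, in 6 for mRpS11 and Sirt4, and in 4 for Tim9a and gt.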

How the results depend on the processing

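With 3 arrays a group, most single calls sat near the threshold. Leaving out 1 array gave 0 to 1 called members for the mutant against control, 0 to 1 for PSC against control and 1 to 3 for the mutant against PSC discs, beside 2, 1 and 4 with all arrays. Fitting only the groups compared gave 0, 0 and 1. The glue covariate, chosen after seeing the data, gave 0 for the mutant against control and 1 for the mutant against PSC discs. Centring gave 1 for the mutant against control and moved the median difference of the mutant from PSC discs to -0.081, beside -0.072 over all genes. Over all genes centring put 559 of 1162 calls higher for the mutant against control, beside 756 of 1226, and 580 of 1328 for the mutant against PSC discs, beside 828 of 1266. The median differences ranged, with 1 array left out, from -0.0038 to 0.068 for the mutant, from 0.0011 to 0.075 for PSC and from -0.049 to 0.0026 between them. The cause of these shifts was not tested. Deviations from the group means, correlated over all genes, gave same-numbered pairs of arrays r from -0.44 to 0.59, with 4 of 9 over 0.1. Pairs of different number had r from -0.62 to 0.62, with 7 of 18 over 0.1. These values do not decide whether the numbers pair the arrays, and the array numbered 3 was lowest for the members in each group. With the number as a replicate block 2, 1 and 4 members were called. Of the other named results, Tom70 in the mutant and RpS5b under PSC lost their calls there. No named result turned its direction past the threshold.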
